A study of Mus musculus with 12 samples.

Results

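The genes described here are 10 members of the Notch pathway, grouped by role: the receptors Notch1, Notch2 and Notch3, the ligands Jag1, Jag2 and Dll1, and the transcriptional targets Hes1, Hey1, Heyl and Nrarp. They were chosen by name, as the mouse genes to which the arrays' probe accessions map, out of 21367 named genes. To be tested, a gene needed a probe whose signal stood well above background on each of the 3 arrays in 1 group or more. Of the 10 genes, 7 passed, within 14444 tested genes. Jag2, Heyl and Nrarp did not pass and are given as levels only.

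RNA was measured in mouse embryonic fibroblasts (MEFs), connective tissue cells cultured from E12.5 to E13.5 embryos of C57BL/6 mice, on 12 1-colour Agilent arrays with 3 per group. In the first group the cells received a viral vector for RASV12, an oncogenic form of RAS, and then one for shp53, a short hairpin RNA against the mRNA of p53 (called TS in the design text). In the second group shp53 came first and RASV12 after it (called T). The third group received RASV12 alone and the fourth shp53 alone. All groups therefore carried at least 1 vector, and no group without a vector was analysed here. The promoters that drive the vectors, the interval between both transductions and the embryo or clone behind each culture are not given in the sources used here. The design text describes the 3 arrays of a group as independent biological replicates, and the p-values rest on how far these arrays spread, whose small number limits the precision.

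Notch receptors are single-pass membrane proteins that bind ligands of the Jagged and Delta-like families on neighbouring cells. Binding exposes the receptor to ADAM proteases and then to gamma-secretase, which frees its intracellular domain to enter the nucleus, where it joins the DNA-binding protein RBPJ and Mastermind-like coactivators. Genes of the HES and HEY families, which encode basic helix-loop-helix repressors, and Nrarp, which encodes a feedback inhibitor of the complex, are the best known targets. In fibroblasts and in the mural cells of vessels, Jag1 and the Notch receptors take part in cell contact signalling and differentiation.

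Promoter sequence is shown for Jag1 and Notch2, the ligand and the receptor that passed the test in the most comparisons. RefSeq windows on GRCm38.p6, reaching 250 bases before and 50 bases after an annotated start site, were searched for 7 of the 10 genes, 8 windows in all because Dll1 has 2. The bases before the start site are given 5′ to 3′ on the gene's own strand. The Jag1 stretch is chr2:137116521-137116770 on the minus strand, and the Notch2 stretch is chr3:98013288-98013537 on the plus strand. Capitals mark the class C site of HES and HEY repressors, CACGCG, or its reverse complement, CGCGTG.
Jag1: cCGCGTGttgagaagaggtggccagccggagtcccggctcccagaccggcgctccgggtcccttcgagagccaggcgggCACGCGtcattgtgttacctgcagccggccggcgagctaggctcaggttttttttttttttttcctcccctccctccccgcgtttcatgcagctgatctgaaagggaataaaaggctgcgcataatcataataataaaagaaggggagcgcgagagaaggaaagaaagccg
Notch2: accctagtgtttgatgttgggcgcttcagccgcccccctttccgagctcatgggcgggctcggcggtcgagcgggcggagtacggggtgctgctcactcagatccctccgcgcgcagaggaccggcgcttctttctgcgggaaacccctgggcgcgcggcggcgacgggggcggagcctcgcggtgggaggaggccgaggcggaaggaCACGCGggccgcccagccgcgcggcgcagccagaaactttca

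The class C site lay 249 and 171 bases before the start site in Jag1 and 42 bases before it in Notch2. It was found in 4 of the 8 windows, against 9.27% of 32851 promoter windows of the same length. The other windows with it were those of Jag2, where it lay after the start site, and of 1 Dll1 start site. The shares over all windows were not matched for base composition. The RBPJ core TGGGAA was in 0 of the 8 windows and in 25.6% of all windows, searched on both strands like the other motifs. The E box CACGTG was in 1 of the 8 windows and 7.15% of all, the N box CACNAG in 5 and 42.5%, and the AP-1 site TGANTCA in 1 and 7.81%. A match is a description of the letters in the window and not a site of binding. Windows of Hes1, Hey1 and Heyl were not used here.

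The levels below are the log2 signal of a probe less the 75th percentile of its array, so 0 is the array's upper quartile. A level is compared between groups and never between genes, since probes differ in brightness. Between 56.6% and 62.4% of an array's spots were well above background. The dimmest probe well above background lay between -6.39 and -5.46 on this scale, depending on the array.

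Trp53, the gene of p53 and the target of the hairpin, stood between -4.14 and -3.06 on the 9 arrays of groups with shp53 and between -0.75 and -0.35 on the 3 arrays with RASV12 alone, as the labels have it. All 10 fibroblast markers were well above background on all 12 arrays. In each group 2 arrays were closer to each other (r from 0.993 to 0.998 across genes) than to the third (r from 0.967 to 0.981). The array that stood apart was replicate 1 in both groups with both vectors and replicate 2 in the RASV12 and shp53 groups. The replicate number was also the slide, with 1 array of every group on each of the 3 slides, all scanned on 1 day. Calls of the 10 genes that change without the arrays that stand apart are given with and without them. Without those 4 arrays 48.0% to 72.3% of all genes passed in a comparison, against 15.8% to 45.5% with all 12. Across genes, the SD of the difference between arrays of a close pair was 0.209 to 0.370, against 0.615 to 0.813 for the other pairs of a group. For replicate spots within an array it was 0.240. All p-values without those 4 arrays rest on this small spread within close pairs and may understate the spread between cultures. The fit on all 12 arrays also counts both arrays of a close pair as separate replicates. If the arrays of a pair are not independent cultures, its p-values are too small as well.

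Markers of other cell types differed between the groups, and their part in the results below was not tested. Of 9 macrophage and leukocyte markers, 4 were well above background on each array of RASV12-then-shp53 cells, 4 or 5 on those of shp53-then-RASV12 cells, 6 on those of RASV12 cells and 8 or 9 on those of shp53 cells. Their summed level ranged from 2.58 to 3.18, from 3.16 to 3.63, from 3.20 to 4.35 and from 3.46 to 6.06 in the same order. Within the shp53 group the sum was 6.06 on replicates 1 and 3 and 3.46 on replicate 2, the array that stood apart. Ptprc, the pan-leukocyte gene, Fcgr1 and Cx3cr1 were not well above background on any array outside the shp53 group. Of 8 pericyte and smooth muscle markers, 4 or 5, 3 or 4, 5 or 6 and 7 or 8 were well above background in the 4 groups in that order, with summed levels of 4.16 to 4.70, 4.15 to 4.79, 4.10 to 4.31 and 4.11 to 4.37. Of 8 endothelial markers, 4, 2 to 4, 4 or 5 and 2 or 3 were well above background in the 4 groups, with summed levels of 0.22 to 1.18, 0.13 to 1.31, 0.91 to 1.88 and 1.59 to 2.19. Kdr, the main VEGF receptor, was the brightest of them, at -0.07 to 2.17 over the 12 arrays. Cdh5, the endothelial cadherin, was well above background on all arrays of RASV12-then-shp53 cells (-4.98 to -4.46) and RASV12 cells (-4.90 to -3.34) and on none of the other 6, and Tek and Tie1 were so on none of the 12. Of 8 epithelial markers, 2 to 6 were well above background, with summed levels of 0.83 to 3.28, 0.72 to 3.52, 2.91 to 2.93 and -0.36 to 0.042 in the 4 groups. Of 8 neural and glial markers, 4 or 5 were, and of 8 skeletal muscle markers, 1 to 3. In RNA from whole cultures, fewer cells of a type and less RNA per cell cannot be told apart.

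**Figure D1:**
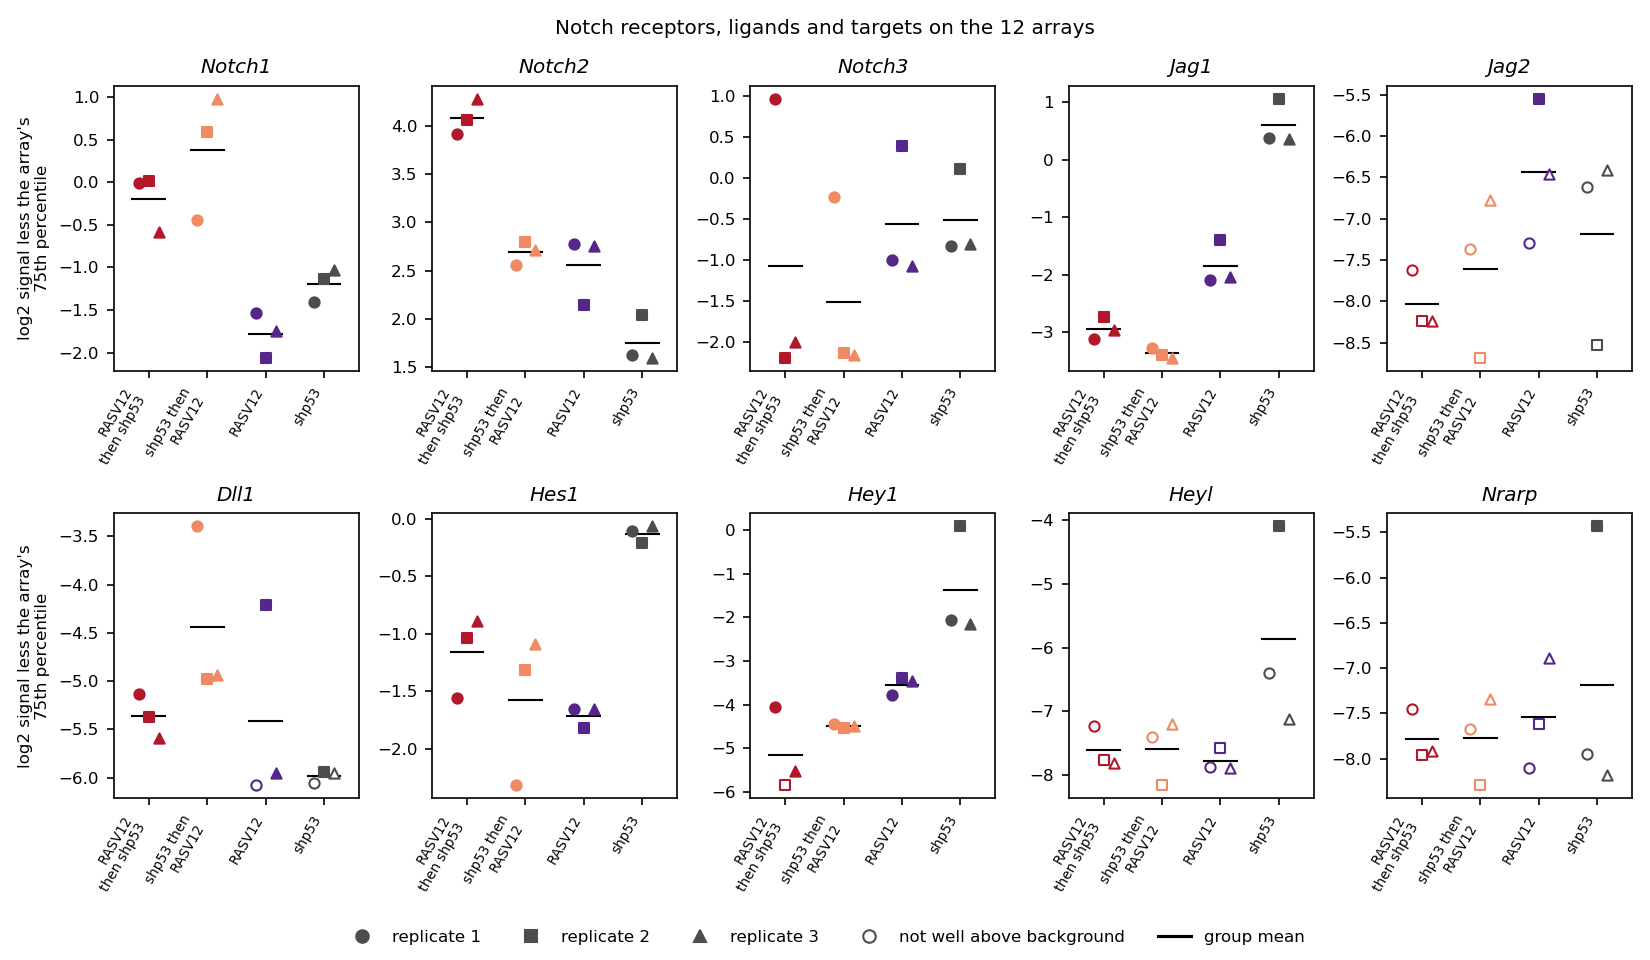
Level of each of the 10 genes on each of the 12 arrays (y axis, log2 signal less the array's 75th percentile, a separate scale per gene) in the 4 groups (x axis). Points are arrays, with the shape giving the replicate, open points are not well above background, and lines are group means over 3 arrays. Notch2 is highest in RASV12-then-shp53 cells, at 3.91 to 4.28, and Jag1 is highest in shp53 cells, at 0.36 to 1.05.

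Between the orders of the same pair of vectors, Notch2 was the one gene of the 7 that passed the test, and it was higher when RASV12 came first. Its level was 4.08 ± 0.18 in RASV12-then-shp53 cells and 2.69 ± 0.12 in shp53-then-RASV12 cells (SD, n = 3 each). This is a 2.63-fold difference (log2 difference 1.39 ± 0.20 SE, limma adjusted p = 0.00106). The other six genes had differences from -0.93 for Dll1 to 0.44 for Notch3 with adjusted p from 0.263 to 0.783. Over all tested genes 15.8% passed in this comparison, 7.33% higher and 8.47% lower, so 1 of 7 is close to the background. With arrays scaled on their median, 68.5% of all calls were higher, against 46.4% in the reported fit. The median of the 7 differences was 0.41, against 0.00058 over all genes, and the median size was 0.57, against 0.30 over all genes.

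Within the slides, each holding 1 array of either order, the Notch2 difference was 1.35, 1.27 and 1.57 on slides 1, 2 and 3. Jag1, with differences of 0.15, 0.66 and 0.48, and Hes1, with 0.76, 0.28 and 0.20, were also higher with RASV12 first on every slide, by amounts that did not pass the test. Dll1, at -1.73, -0.39 and -0.65, was lower with RASV12 first on every slide and did not pass either. Notch1, at 0.43, -0.58 and -1.56, and Hey1, at 0.38, -1.32 and -1.04, changed sign between slide 1 and the other slides. Notch3 was at 1.20, -0.06 and 0.17. Slide 1 holds replicate 1, the array that stood apart in both groups. Without the 4 arrays that stand apart, 5 of the 7 genes passed, where 48.0% of all genes did. Notch2 (1.42, adjusted p = 6.61e-05) and Jag1 (0.57, adjusted p = 0.00357) were higher, and Notch1 (-1.07, adjusted p = 0.0135), Hey1 (-1.18, adjusted p = 0.00115) and Dll1 (-0.52, adjusted p = 0.00617) were lower. That fit rests on the close pairs alone. With each close pair averaged to 1 sample, none passed, and Notch2 was at 1.38 with an adjusted p of 0.0723.

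**Figure D2:**
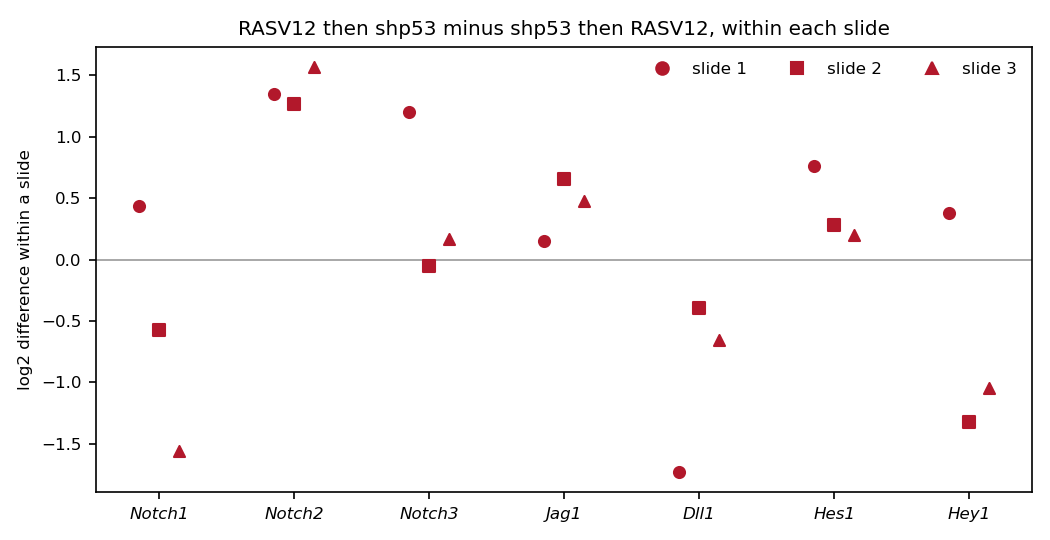
Difference between RASV12-then-shp53 and shp53-then-RASV12 cells on each of the 3 slides (y axis, log2) for the 7 tested genes (x axis). The shape gives the slide, and points above 0 are higher in RASV12-then-shp53 cells. Notch2 lies between 1.27 and 1.57 on all 3 slides, while Notch1 and Hey1 lie on both sides of 0.

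Among the receptors, Notch2, whose protein is widely made in mesenchymal cells, had the lowest level in shp53 cells. It stood at 3.91, 4.06 and 4.28 in RASV12-then-shp53 cells, 2.56, 2.80 and 2.71 in shp53-then-RASV12 cells, 2.77, 2.15 and 2.76 in RASV12 cells, and 1.63, 2.04 and 1.60 in shp53 cells. RASV12-then-shp53 cells lay above all other arrays and shp53 cells below them, with the other two groups overlapping between. RASV12-then-shp53 cells had 5.02-fold the level of shp53 cells (log2 difference 2.33 ± 0.20 SE, limma adjusted p = 1.07e-05) and 2.88-fold that of RASV12 cells (adjusted p = 2.73e-04). shp53-then-RASV12 cells were 1.91-fold above shp53 cells (adjusted p = 0.00465), and RASV12 cells 1.75-fold (adjusted p = 0.0132). shp53-then-RASV12 and RASV12 cells differed by 0.13 ± 0.20 (adjusted p = 0.674), and this small difference changed sign without RASV12 replicate 2, to -0.075, and without the 4 arrays that stand apart, to -0.011. The call of RASV12 against shp53 cells was lost without either array of the close pair of RASV12 cells or of shp53 cells, where the difference was between 0.70 and 0.74 with adjusted p from 0.0548 to 0.0586.

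A second, dimmer Notch2 probe gave the groups in the same order. It averaged -3.05 in RASV12-then-shp53 cells, -4.29 in shp53-then-RASV12 cells, -4.83 in RASV12 cells and -5.47 in shp53 cells, where 1 of the 3 arrays was well above background. Its difference between both orders was 1.24, with no test run on it.

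Notch1, the receptor best known from T lymphocyte development, was higher in both groups with both vectors than in those with 1 vector. It stood at -0.01, 0.01 and -0.58 in RASV12-then-shp53 cells, -0.45, 0.59 and 0.98 in shp53-then-RASV12 cells, -1.54, -2.06 and -1.75 in RASV12 cells, and -1.41, -1.13 and -1.03 in shp53 cells. All 6 arrays with both vectors lay above all 6 with 1 vector, and the orders overlapped with each other. shp53-then-RASV12 cells had 4.46-fold the level of RASV12 cells (log2 difference 2.16 ± 0.33 SE, limma adjusted p = 0.00141) and 2.96-fold that of shp53 cells (adjusted p = 0.00428). RASV12-then-shp53 cells had 3.01-fold the level of RASV12 cells (adjusted p = 0.00388) and 1.997-fold that of shp53 cells (adjusted p = 0.0304). The last call was lost without RASV12-then-shp53 replicate 1 or 2 or without any 1 of the shp53 arrays, with adjusted p from 0.0546 to 0.0990 and differences from 0.89 to 1.08. RASV12 and shp53 cells differed by -0.59 ± 0.33 (adjusted p = 0.216), although their arrays did not overlap. Between the orders Notch1 differed by -0.57 ± 0.33 (adjusted p = 0.293), and without shp53-then-RASV12 replicate 1 by -0.98 (adjusted p = 0.0243). A second Notch1 probe was not well above background on any array and was not used.

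Notch3, a receptor made mainly in mural cells of vessels, passed the test in 0 of the 6 comparisons (the smallest unadjusted limma p was 0.257). It stood at 0.97, -2.20 and -2.004 in RASV12-then-shp53 cells, -0.23, -2.14 and -2.17 in shp53-then-RASV12 cells, -1.01, 0.39 and -1.08 in RASV12 cells, and -0.83, 0.11 and -0.80 in shp53 cells. In every group the highest value was that of the array that stood apart. In the fit on the close pairs alone, without those 4 arrays, Notch3 passed as lower in both groups with both vectors than in either group with 1 vector. The differences from shp53 cells were then -1.28 in RASV12-then-shp53 cells (adjusted p = 2.61e-05) and -1.34 in shp53-then-RASV12 cells (adjusted p = 2.72e-05), and those from RASV12 cells -1.06 and -1.11 (adjusted p = 8.16e-05 and 9.70e-05). With all 12 arrays the same 4 differences ran from -1.01 to -0.51, each with a standard error of 0.84, against 0.085 in the fit on the close pairs.

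Among the ligands, Jag1, which encodes Jagged1, had its highest level in shp53 cells and was lower in every group with RASV12. It stood at -3.11, -2.73 and -2.96 in RASV12-then-shp53 cells, -3.26, -3.38 and -3.44 in shp53-then-RASV12 cells, -2.09, -1.39 and -2.05 in RASV12 cells, and 0.37, 1.05 and 0.36 in shp53 cells. No 2 groups overlapped. Against shp53 cells it was 11.52-fold lower in RASV12-then-shp53 cells (log2 difference -3.53 ± 0.24 SE, limma adjusted p = 1.86e-06), 15.5-fold lower in shp53-then-RASV12 cells (-3.96 ± 0.24, adjusted p = 1.66e-06) and 5.41-fold lower in RASV12 cells (-2.44 ± 0.24, adjusted p = 5.22e-05). Against RASV12 cells it was 2.13-fold lower in RASV12-then-shp53 cells (adjusted p = 0.00486) and 2.87-fold lower in shp53-then-RASV12 cells (adjusted p = 0.00153). Both calls were lost with normexp, at 0.32 (adjusted p = 0.644) and -0.41 (adjusted p = 0.720). With close pairs averaged they were lost too (adjusted p = 0.0661 and 0.0670). The orders differed by 0.43 ± 0.24 (adjusted p = 0.263). The range of its 4 group means, 3.96, was wider than that of 93.5% of tested genes. Within the shp53 group Jag1 was highest on replicate 2, the array with the lowest sum of macrophage markers, and the differences from shp53 cells without the 4 arrays that stand apart were -3.21, -3.78 and -2.43.

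Dll1, which encodes the ligand Delta-like 1, was dim. It stood at -5.13, -5.37 and -5.59 in RASV12-then-shp53 cells, -3.40, -4.98 and -4.93 in shp53-then-RASV12 cells, -6.08, -4.21 and -5.95 in RASV12 cells, and -6.05, -5.94 and -5.95 in shp53 cells. It was well above background on all 6 arrays with both vectors, on 2 of the 3 RASV12 arrays and on 1 of the 3 shp53 arrays. Dll1 thus passed the filter only through the groups with both vectors. Tests of those groups against groups with 1 vector are therefore not independent of the filter. The 3 shp53 arrays lay below the 6 arrays with both vectors, and the RASV12 arrays overlapped with every other group. In shp53-then-RASV12 cells its measured mean was 2.92-fold that of shp53 cells (log2 difference 1.55 ± 0.51 SE, limma adjusted p = 0.0371), a fold that rests on 2 shp53 arrays not well above background. That call was lost without replicate 1 of shp53-then-RASV12 cells (1.03, adjusted p = 0.107), without any 1 of the shp53 arrays (adjusted p from 0.0686 to 0.0948), without the filter on dim probes (adjusted p = 0.0537) and with the authors' deposited log2 values (1.25, adjusted p = 0.0525). Normexp background correction turned its sign (-0.60, adjusted p = 0.667). The other five comparisons gave adjusted p from 0.193 to 0.949. Without the 4 arrays that stand apart, Dll1 was at 1.05 in shp53-then-RASV12 against shp53 cells (adjusted p = 1.49e-04), and 4 more comparisons passed. It was then higher in RASV12-then-shp53 than in shp53 cells (0.52, adjusted p = 0.00308), higher than in RASV12 cells with RASV12 first (0.54, adjusted p = 0.00326) and with shp53 first (1.06, adjusted p = 2.17e-04), and lower with RASV12 first between both orders, as given above.

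Jag2, the ligand Jagged2, was well above background on 1 array, replicate 2 of RASV12 cells, at -5.55. On the other 11 arrays its measured signal, between -8.68 and -6.41, lay below the dimmest probe well above background, so its level there is given only as under that limit of -6.39 to -5.46.

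Among the targets, Hes1, which encodes a repressor that also controls its own gene, was highest in shp53 cells. It stood at -1.56, -1.04 and -0.89 in RASV12-then-shp53 cells, -2.32, -1.32 and -1.09 in shp53-then-RASV12 cells, -1.66, -1.82 and -1.66 in RASV12 cells, and -0.11, -0.21 and -0.07 in shp53 cells. The 3 shp53 arrays, from -0.21 to -0.07, lay above the other 9. Against shp53 cells Hes1 was 2.05-fold lower in RASV12-then-shp53 cells (log2 difference -1.03 ± 0.29 SE, limma adjusted p = 0.0141), 2.73-fold lower in shp53-then-RASV12 cells (adjusted p = 0.00311) and 2.995-fold lower in RASV12 cells (adjusted p = 0.00246). The first of these calls was lost when arrays were scaled on their median (-0.70, adjusted p = 0.107). Between the 3 groups with RASV12 the differences were from 0.14 to 0.55, with adjusted p from 0.154 to 0.769. Without the 4 arrays that stand apart, Hes1 was higher than in RASV12 cells in RASV12-then-shp53 cells (0.69, adjusted p = 9.69e-04) and in shp53-then-RASV12 cells (0.45, adjusted p = 0.00767), and the 3 calls against shp53 cells held.

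Hey1, which encodes a repressor of the HEY family active in heart, vessel and bone cells, was also highest in shp53 cells. It stood at -4.06, -5.85 and -5.53 in RASV12-then-shp53 cells, -4.44, -4.53 and -4.49 in shp53-then-RASV12 cells, -3.79, -3.39 and -3.47 in RASV12 cells, and -2.05, 0.09 and -2.15 in shp53 cells. The shp53 arrays lay above the other 9, replicate 2 far above its own group, and replicate 2 of RASV12-then-shp53 cells was not well above background. Against shp53 cells Hey1 was 13.7-fold lower in RASV12-then-shp53 cells (log2 difference -3.78 ± 0.58 SE, limma adjusted p = 5.37e-04), 8.66-fold lower in shp53-then-RASV12 cells (-3.11 ± 0.58, adjusted p = 0.00228) and 4.52-fold lower in RASV12 cells (-2.18 ± 0.58, adjusted p = 0.0192). Without the 4 arrays that stand apart these differences were -3.59, -2.41 and -1.53, all past the threshold. With all other arrays kept, the call of RASV12 against shp53 cells was lost without RASV12 replicate 1 (adjusted p = 0.0655) or 3 (adjusted p = 0.0513). Against RASV12 cells, RASV12-then-shp53 cells were at -1.60 ± 0.58 (adjusted p = 0.0521), and at -2.14 (adjusted p = 0.0134) without replicate 1 of RASV12-then-shp53 cells. Without the 4 arrays that stand apart, Hey1 was lower than in RASV12 cells in RASV12-then-shp53 cells (-2.07, adjusted p = 4.60e-05) and in shp53-then-RASV12 cells (-0.88, adjusted p = 0.00262).

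Heyl, a further HEY repressor, and Nrarp were each well above background on a single array, replicate 2 of shp53 cells, at -4.09 for Heyl and -5.44 for Nrarp. The same array held the highest Hey1 level and the highest Cspg4 level, a pericyte marker, at 1.97, against 0.61 and 0.50 on the other shp53 arrays. Cspg4 is 1 of the 8 pericyte and smooth muscle markers. Their summed level differed less, at 4.37 on that array against 4.11 and 4.18 on the other shp53 arrays, and the part of such cells was not tested. Tested without the filter on dim probes, Heyl, Nrarp and Jag2 passed in none of the 6 comparisons, with adjusted p of 0.0624 or more.

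**Figure D3:**
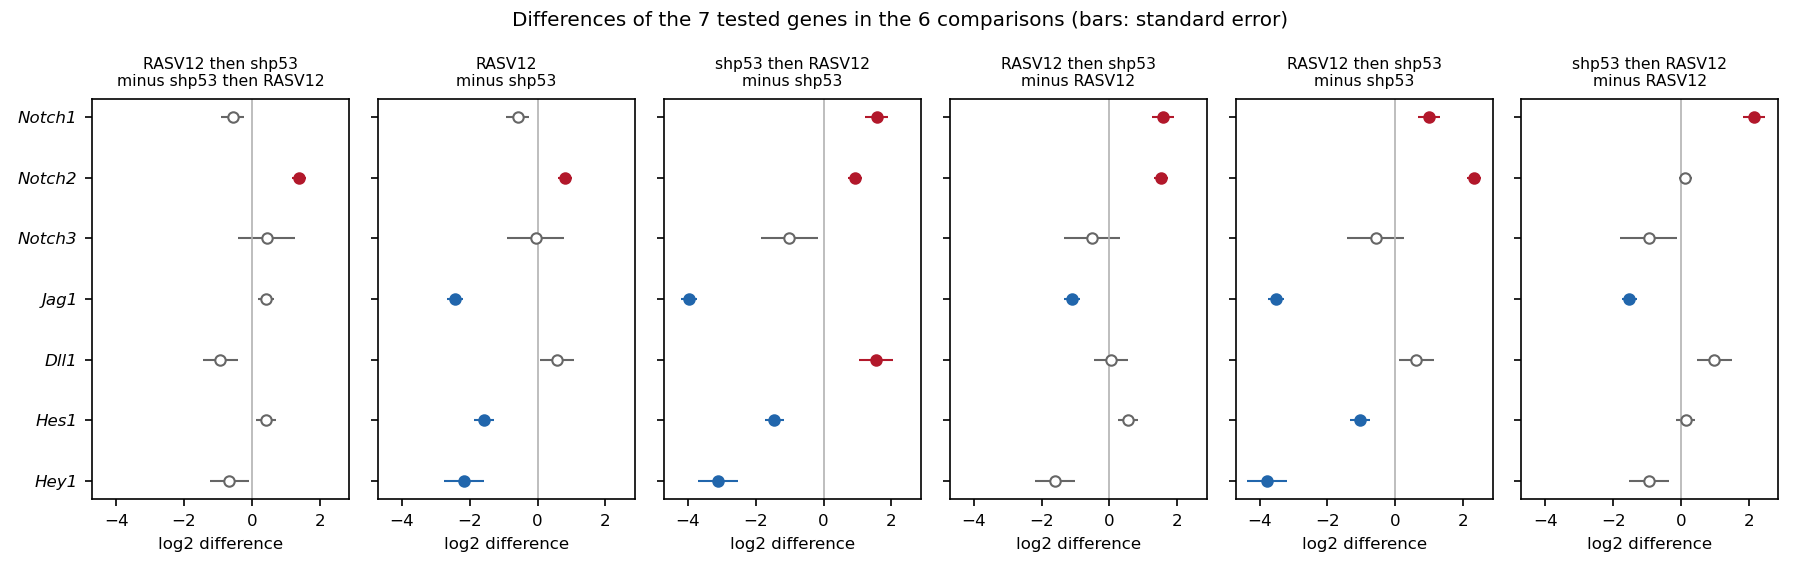
Log2 difference (x axis) with its standard error (bars) for the 7 tested genes (rows) in the 6 comparisons (panels), each named as the first group minus the second. Filled points passed the limma test at an adjusted p under 0.05, in red where higher and in blue where lower, and open points did not. Jag1 runs from -3.96 to 0.43 and Notch2 from 0.13 to 2.33.

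Counted by comparison, the number of the 7 genes that passed is set beside the share of all tested genes that did. In RASV12 against shp53 cells 4 passed, Notch2 higher and Jag1, Hes1 and Hey1 lower, with 27.1% of all genes past the threshold, 14.3% higher and 12.8% lower. In shp53-then-RASV12 against shp53 cells 6 passed, Notch1, Notch2 and Dll1 higher and Jag1, Hes1 and Hey1 lower, with 37.6% of all genes, 17.3% higher and 20.3% lower. In RASV12-then-shp53 against shp53 cells 5 passed, Notch1 and Notch2 higher and Jag1, Hes1 and Hey1 lower, with 45.5% of all genes, 21.7% higher and 23.8% lower. In RASV12-then-shp53 against RASV12 cells 3 passed, Notch1 and Notch2 higher and Jag1 lower, with 38.8% of all genes, 17.2% higher and 21.7% lower. Scaling on the median moved the higher share of all calls in those last 2 comparisons to 68.6% and 63.6%, against 47.7% and 44.2%. In shp53-then-RASV12 against RASV12 cells 2 passed, Notch1 higher and Jag1 lower, with 25.4% of all genes, 10.2% higher and 15.1% lower.

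These comparisons share groups and are not independent of each other. The median difference of the 7 genes was -0.59, -1.01, -0.57, 0.05 and 0.13 in those 5 comparisons, against 0.050, 0.029, 0.022, -0.069 and -0.054 over all genes. The median size of a difference was 0.80, 1.55, 1.03, 1.09 and 0.95, against 0.38, 0.47, 0.55, 0.49 and 0.38 over all genes. With each close pair averaged to 1 sample, which leaves 2 samples per group, 1, 2, 3, 1 and 0 genes passed. Those were Jag1 against shp53 cells in all 3 groups with RASV12, Hey1 against shp53 cells in both groups with both vectors, and Notch2 in RASV12-then-shp53 against shp53 and RASV12 cells. With normexp background correction 5 member calls were left over the 6 comparisons. They were Hes1 in RASV12 against shp53 cells (-1.34, adjusted p = 0.0421), Jag1 in shp53-then-RASV12 against shp53 cells (-2.40, adjusted p = 0.0309), Notch2 in RASV12-then-shp53 against shp53 cells (1.97, adjusted p = 0.0143), and Notch1 in both groups with both vectors against RASV12 cells (adjusted p = 0.0189 with RASV12 first and 0.0152 with shp53 first). Notch2 between both orders was then at 0.90 (adjusted p = 0.695). When extreme local backgrounds, 77 in all, were first replaced, it was at 1.36 (adjusted p = 0.00156). In that setting, chosen after seeing the data, the Jag1 call in RASV12-then-shp53 against RASV12 cells was lost (-0.61, adjusted p = 0.0666). The Dll1 call in shp53-then-RASV12 against shp53 cells was lost too (0.73, adjusted p = 0.0672).

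The rest of the pathway was read from lists of 76 further genes, of which 69 were tested. Between both orders, 3 of the 69 were higher with RASV12 first and 9 lower, 17.4% of those tested against 15.8% of all genes. Against shp53 cells, 13 were higher and 17 lower in RASV12-then-shp53 cells (43.5%), 13 and 14 in shp53-then-RASV12 cells (39.1%), and 9 and 11 in RASV12 cells (29.0%). Against RASV12 cells, 9 were higher and 15 lower in RASV12-then-shp53 cells (34.8%), and 7 and 11 in shp53-then-RASV12 cells (26.1%). The shares of all genes past the threshold in these 5 comparisons were 45.5%, 37.6%, 27.1%, 38.8% and 25.4%. The split into higher and lower depends on the scaling. With arrays scaled on their median, the higher share of all calls was 68.5% between both orders. It was 68.6% in RASV12-then-shp53 against shp53 cells and 63.6% against RASV12 cells. In those comparisons more of the 69 were then higher than lower. Of the 76 calls taken up by name from these lists, normexp background correction kept 12, lost 54 and turned 10, and averaging the close pairs kept 34, while without the 4 arrays that stand apart all 76 were kept.

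Of 9 glycosyltransferases that modify Notch receptors, 2 were lower in RASV12-then-shp53 than in shp53 cells, 3 in shp53-then-RASV12 and 2 in RASV12 cells, and none was higher. Over all genes 23.8%, 20.3% and 12.8% were lower, so these counts are close to the background. Lfng, which encodes Lunatic fringe, a modulator of receptor preference between Delta and Jagged ligands, was not well above background on any array with both vectors, and stood at -4.90, -5.02 and -5.43 in RASV12 cells and -2.23, -2.31 and -2.06 in shp53 cells. It was at least 13.9-fold lower in RASV12-then-shp53 than in shp53 cells (limma adjusted p = 3.12e-07), at least 13.53-fold lower in shp53-then-RASV12 cells (adjusted p = 9.57e-07) and 7.54-fold lower in RASV12 cells (adjusted p = 6.61e-05). Each of these calls was lost in 1 of 18 alternatives. Over the alternatives the log2 difference was as small as -0.87, -1.46 and -1.42, and the adjusted p rose to 0.790, 0.368 and 0.163, in the same order. A fold given as at least a value uses, for the dim group, the dimmest probe well above background on each array. Mfng, which encodes Manic fringe, was well above background on 1 of the 9 arrays with RASV12 and stood at -2.20, -5.23 and -2.18 in shp53 cells. It passed the filter only through shp53 cells, the group where it was high, so the tests against that group are not independent of the filter. It was at least 6.91-fold lower in RASV12-then-shp53 than in shp53 cells (adjusted p = 0.00304) and at least 6.95-fold lower in RASV12 cells (adjusted p = 0.00899). Without shp53 replicate 2 these bounds were 13.9-fold and 14.0-fold (adjusted p = 8.67e-06 and 3.17e-05), and with each close pair averaged both calls were lost (adjusted p = 0.0863 and 0.179). Its low shp53 array was that with the lowest sum of macrophage markers, and the part of those cells in its result was not tested.

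Of 9 other receptors and ligands, 4 were lower and 0 higher in RASV12-then-shp53 than in shp53-then-RASV12 cells, against 8.47% of all genes lower and 7.33% higher, and with arrays scaled on their median 2 were lower. Mfap5, an extracellular matrix protein that binds Jagged1 and Notch1, stood at -1.14, -2.60 and -2.69 in RASV12-then-shp53 cells, 0.01, -0.03 and -0.15 in shp53-then-RASV12 cells, 3.39, 2.77 and 3.45 in RASV12 cells, and 5.06, 4.65 and 5.08 in shp53 cells. No groups overlapped, and the difference between both orders was -2.09 ± 0.37 SE (limma adjusted p = 0.00364). Dner, a neuronal protein with EGF repeats proposed as a ligand, was not well above background in RASV12-then-shp53 cells and stood at 0.69, -1.03 and 0.75 in shp53 cells, lowest on the same array as Mfng. It was at least 69.2-fold lower in RASV12-then-shp53 than in shp53 cells (adjusted p = 6.08e-06) and at least 2.58-fold lower than in shp53-then-RASV12 cells (adjusted p = 0.0269). Without shp53 replicate 2 the first bound was 104-fold. The second call was lost without replicate 2 or 3 of either group (adjusted p from 0.0561 to 0.0986), and its sign turned with normexp (0.51, adjusted p = 0.721). Dlk2, a non-canonical ligand, differed by -1.10 between both orders (adjusted p = 0.0176), a call lost without replicate 2 or 3 of either group (adjusted p from 0.0521 to 0.0681), and Dll3, named as the remaining call of this list, by -0.73 (adjusted p = 0.0443). Notch4, the receptor of endothelial cells, was 4.40-fold higher in RASV12 than in shp53 cells (adjusted p = 0.00456), at -3.07, -2.55 and -3.05 against -5.06, -4.92 and -5.11. With normexp the Notch4 difference turned to -0.76 (adjusted p = 0.414). The mean Notch4 level was -3.19 in RASV12-then-shp53 and -3.15 in shp53-then-RASV12 cells, against -2.89 in RASV12 and -5.03 in shp53 cells. Cdh5 was well above background in RASV12 and RASV12-then-shp53 cells and not in shp53 or shp53-then-RASV12 cells. The summed level of the 8 endothelial markers went the other way, at 0.91 to 1.88 in RASV12 and 1.59 to 2.19 in shp53 cells. The part of endothelial cells in the Notch4 result was not tested.

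Of 14 genes of ubiquitination and trafficking, 3 were lower and 0 higher in RASV12-then-shp53 than in shp53-then-RASV12 cells, against 8.47% and 7.33% of all genes. Neurl1a, which encodes a ubiquitin ligase acting on ligands, stood at -2.08, -2.56 and -2.56 in RASV12-then-shp53 cells, 0.38, -0.04 and -0.12 in shp53-then-RASV12 cells, -0.95, -0.85 and -0.95 in RASV12 cells, and -0.82, -0.45 and -0.95 in shp53 cells. RASV12-then-shp53 cells lay below and shp53-then-RASV12 cells above all others, 5.54-fold apart (log2 difference -2.47 ± 0.19 SE, limma adjusted p = 1.96e-05). Dtx4, a Deltex ubiquitin ligase, was 3.14-fold lower with RASV12 first (adjusted p = 0.00580). Dtx1, of the same family, was at least 2.79-fold lower (adjusted p = 0.00229) and was not well above background on any RASV12-then-shp53 array, and its sign turned with normexp (0.43, adjusted p = 0.766). Numbl, an endocytic adaptor related to the Notch inhibitor Numb, was 3.16-fold lower in shp53-then-RASV12 than in RASV12 cells (adjusted p = 4.40e-04) and 3.09-fold lower than in shp53 cells (adjusted p = 2.01e-04). Its mean level was low in both groups with both vectors, at 0.03 with shp53 first and 0.25 with RASV12 first. It was 1.69 in RASV12 and 1.65 in shp53 cells.

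**Figure D4:**
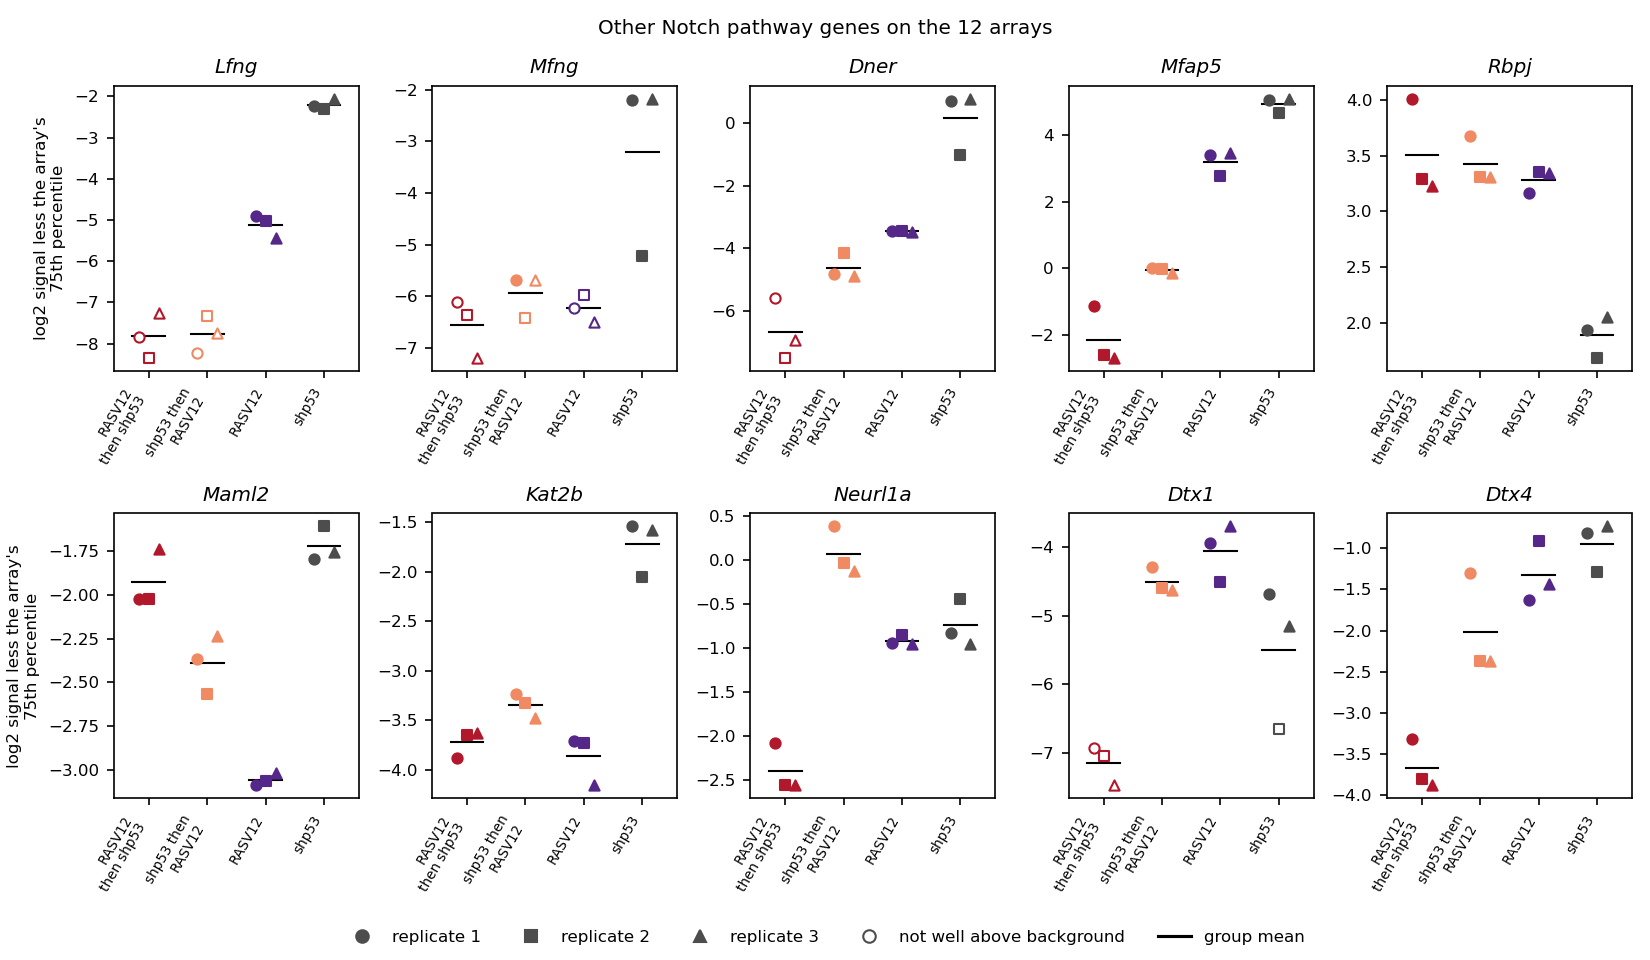
Level of 10 further pathway genes on each array (y axis, log2 signal less the array's 75th percentile, a separate scale per gene) in the 4 groups (x axis). Points are arrays with the shape giving the replicate, open points are not well above background, and lines are group means. Lfng and Mfap5 are highest in shp53 cells, and Neurl1a is lowest in RASV12-then-shp53 cells, at -2.56 to -2.08.

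Of 20 genes of the nuclear complex, 9 were higher and 3 lower in RASV12-then-shp53 than in shp53 cells, 5 and 2 in shp53-then-RASV12 and 3 and 3 in RASV12 cells. Over all genes 21.7% were higher and 23.8% lower in the first of these comparisons, 17.3% and 20.3% in the next, and 14.3% and 12.8% in the last. With arrays scaled on their median, 11 were higher and 2 lower in RASV12-then-shp53 than in shp53 cells, where 68.6% of all calls were then higher, against 47.7% in the reported fit. Rbpj, the DNA-binding partner of the receptors' intracellular domain, stood at 4.01, 3.29 and 3.23 in RASV12-then-shp53 cells, 3.67, 3.30 and 3.31 in shp53-then-RASV12 cells, 3.16, 3.35 and 3.34 in RASV12 cells, and 1.93, 1.68 and 2.05 in shp53 cells. The 9 arrays with RASV12 lay above all shp53 arrays. Rbpj was 3.08-fold higher in RASV12-then-shp53 than in shp53 cells (limma adjusted p = 1.85e-04) and 2.91-fold higher in shp53-then-RASV12 cells (adjusted p = 3.62e-04). Kat2b, an acetyltransferase recruited to the complex, was 3.97-fold lower in RASV12-then-shp53 cells than in shp53 cells (adjusted p = 1.49e-05), 3.07-fold lower in shp53-then-RASV12 cells (adjusted p = 8.43e-05) and 4.40-fold lower in RASV12 cells (adjusted p = 2.17e-05). Maml2, a Mastermind-like coactivator, differed by 0.46 between both orders (adjusted p = 0.0398) and Maml1 by -0.37 (adjusted p = 0.0441). Of 20 alternatives, 12 lost the Maml2 call and 14 the Maml1 call, among them leaving out any 1 array of either group for Maml1. Snw1, a coregulator of RBPJ, was 1.97-fold higher in RASV12-then-shp53 than in RASV12 cells (adjusted p = 2.95e-04) and 1.64-fold higher in shp53-then-RASV12 cells (adjusted p = 0.00352).

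Of the 8 tested genes of receptor processing, 1 was higher in RASV12-then-shp53 than in shp53-then-RASV12 cells, Aph1a, a gamma-secretase subunit, by 0.60 (limma adjusted p = 0.0108). Against shp53 cells, 3 were lower and 0 higher in each group with both vectors, and 1 was lower and 1 higher in RASV12 cells. The shares of all genes lower were 23.8% with RASV12 first, 20.3% with shp53 first and 12.8% in RASV12 cells, and those higher 21.7%, 17.3% and 14.3%. With arrays scaled on their median, 0 were lower with RASV12 first and 2 with shp53 first. Furin, the protease of the first receptor cleavage, was 1.65-fold higher in RASV12 than in shp53 cells (adjusted p = 0.0154), a call lost without RASV12 replicate 1 (adjusted p = 0.0529). Psen2, a catalytic gamma-secretase subunit, was 1.69-fold lower in RASV12-then-shp53 than in shp53 cells (adjusted p = 0.00339), a call lost with median scaling (adjusted p = 0.0884).

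Of the other HES and HEY genes 3 of 6 were tested. Hes3, a repressor known from neural progenitors, was well above background on the RASV12 arrays alone, at -4.97, -4.85 and -5.25, at least 2.22-fold above shp53 cells (limma adjusted p = 4.92e-04). It passed the filter only through RASV12 cells, the group where it was high, so this test is not independent of the filter. With normexp the difference turned to -1.44 (adjusted p = 0.241). Hes6, which antagonises Hes1, was 1.91-fold lower in RASV12-then-shp53 than in shp53 cells (adjusted p = 0.0303) and 2.30-fold lower in shp53-then-RASV12 cells (adjusted p = 0.0119). The first of these calls was lost with median scaling (adjusted p = 0.0810) and without RASV12-then-shp53 replicate 2 or 3 or shp53 replicate 1 or 2 (adjusted p from 0.0538 to 0.113).

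Of 8 further genes described as Notch targets in other cell types, 6 were tested. Acta2, which also marks smooth muscle, was 3.31-fold higher in RASV12-then-shp53 than in shp53-then-RASV12 cells (limma adjusted p = 0.0163), at 5.46, 6.22 and 6.37 against 3.18, 4.88 and 4.82. That call was lost without RASV12-then-shp53 replicate 2 (adjusted p = 0.0591) or 3 (adjusted p = 0.0646). Ccnd1, the gene of cyclin D1, was 1.55-fold lower (adjusted p = 0.0290), a call lost in 11 of 20 alternatives, with adjusted p up to 0.588 and without replicate 2 or 3 of either group. Myc was 2.48-fold higher in RASV12-then-shp53 than in shp53 cells (adjusted p = 0.00276) and 2.36-fold higher in RASV12 cells (adjusted p = 0.00640). Its mean level was similar in all groups with RASV12, at 1.53 with RASV12 first, 1.44 with shp53 first and 1.46 with RASV12 alone. In shp53 cells it was 0.22. Gata3, a transcription factor of T lymphocytes and epithelia, was 11.2-fold higher in shp53-then-RASV12 than in RASV12 cells (adjusted p = 8.74e-04) and 6.67-fold higher than in shp53 cells (adjusted p = 0.00160). In RASV12-then-shp53 cells it was 3.73-fold higher than in RASV12 cells (adjusted p = 0.0113).

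For each of the 7 genes, the tested gene with the most similar profile was taken as that with the smallest root mean square difference over the 12 arrays, after each gene's mean was removed. These were Cmya5 for Notch1 (0.23 on the log2 scale, against a median of 1.02 over all genes), Sytl2 for Notch2 (0.25 against 0.96) and Emid1 for Notch3 (0.46 against 1.13). For Jag1 it was Pkia (0.41 against 1.62) and for Dll1 Iqcf1 (0.33 against 0.93). Zbtb8a was nearest to Hes1 (0.26 against 0.83) and Stk26 to Hey1 (0.42 against 1.63). The arrays share slides and groups, so the likeness is a description.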

How the data were processed

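Per the labels' protocols, 100 ng of total RNA per sample was labelled with Cy3 and hybridised to 1-colour Agilent arrays, 1 sample to an array. The authors' spot intensities came from Agilent Feature Extraction, per the file headers: a processed intensity with background and spatial trend removed inside each array and no scaling across arrays, and median intensities of spot and surroundings. The headers give version 11.5.1.1, and the submitters' processing notes 10.7.3.1. The deposited files also hold flags (neither intensity nor log2) that mark bright, outlying or saturated spots. The authors also deposited log2 values for 25916 probes, whose columns had r from 0.990 to 0.9998 across probes with log2 values rebuilt here less the median of the shp53 arrays; how the authors made them is not given in the sources used here.

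Here 43020 non-control spots per array were used, 1717 spot values (0.333%) with outlier flags left out and none saturated. Log2 processed intensity less the array's 75th percentile was averaged over the spots of a probe (39429 probes, 28330 with a gene name found through the accession in RefSeq tables). Of these, 23899 probes passed the background filter, and the brightest per gene was taken, giving 14444 genes. limma 3.58.1 in R 4.3.3 was fitted to all 12 arrays with 1 mean per group, and p-values were Benjamini-Hochberg adjusted over all genes, with a threshold of 0.05. Groups of 3 against 3 could not go below p = 0.1 in an exact permutation test of 1 gene, so the fit across genes was used. The limma code was tested on simulated data.

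The members, lists and tests were chosen with earlier results of these data known. The named genes of other lists were the called ones with the smallest adjusted p, up to 3 a list between both orders and up to 2 in other comparisons. Same-numbered arrays of both groups with both vectors deviated together from their group means (r = 0.598, 0.447 and 0.320). Replicate 1 stood apart in both groups, and deviations from a group mean cancel within the group. A shared shift of replicate 1 therefore moves the other arrays together as well. Arrays with different numbers were not compared in this way. Whether these groups pair by replicate number, which is also the slide, cannot be told from these values, and the labels give no pairing. In the RASV12 and shp53 groups replicate 2 stood apart in both, and r was -0.076, -0.110 and -0.013. In the other comparisons r of same-numbered arrays ran from -0.341 to 0.259. Alternatives covered scaling, background correction, filter, probe choice, the authors' values, variance model, samples in the fit, replicate block, close pairs, arrays that stand apart and each array left out. Counts of the pathway lists under median scaling, and the bounds of Mfng and Dner without shp53 replicate 2, were chosen after seeing the data.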

Additional observations from a re-analysis of the deposited data

How the results depend on the processing

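Of 793 alternative values for the 7 genes, 695 kept direction and side of the threshold, 48 lost the call, 23 gained it and 27 changed sign; of 1494 for the other named genes, 1275 kept both, 209 lost the call and 10 changed sign. Jag1 in shp53-then-RASV12 against shp53 cells and Notch2 in RASV12-then-shp53 against shp53 cells passed in every alternative run. The comparisons below are in the order RASV12-then-shp53 against shp53-then-RASV12, RASV12 against shp53, shp53-then-RASV12 against shp53, RASV12-then-shp53 against RASV12, RASV12-then-shp53 against shp53, and shp53-then-RASV12 against RASV12, where 1, 4, 6, 3, 5 and 2 of the genes passed. With normexp background correction 0, 1, 1, 1, 1 and 1 passed, among 65, 434, 383, 821, 349 and 194 of all genes against 2282, 3916, 5431, 5610, 6577 and 3664 in the reported fit. When 77 local backgrounds more than 5-fold above their array's median were first set to that median, an alternative chosen after seeing the data, 1, 4, 5, 2, 5 and 2 passed, among 1284 of all genes in the first comparison. With close pairs averaged 0, 1, 2, 1, 3 and 0 passed, among 423, 1029, 1701, 1491, 2479 and 391 of all genes. Without the 4 arrays that stand apart 5, 4, 7, 7, 7 and 6 passed, among 6937, 8451, 9873, 9649, 10437 and 8400 of all genes. Leaving out 1 array at a time gave 1 to 2, 2 to 4, 5 to 6, 3 to 4, 4 to 5 and 2 to 3. The replicate block gave 1, 4, 6, 3, 5 and 2, and a fit of both orders alone with the replicate block 1, so the block changed no count. All genes called fell to 1381 in the first comparison fitted on its 2 groups alone, to 1485 there without RASV12-then-shp53 replicate 3, and in the last to 2386 without shp53-then-RASV12 replicate 2, 2152 without RASV12 replicate 1 and 2142 without RASV12 replicate 3. Scaling on the median moved the median difference of all genes to between -0.04 and 0.36.

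Values that changed sign under normexp were, in the first comparison, Dll1 0.54, Dner 0.51, Dtx1 0.43 and Hey1 0.60. In the second they were Dll1 -1.56, Dtx1 -1.02, Hes3 -1.44 and Notch4 -0.76, in the third Dll1 -0.60, and in the fourth Dner 0.76, Hes3 1.34, Hey1 0.93, Jag1 0.32, Lfng 1.18 and Notch3 0.085. In the fifth it was Dll1 -0.059, and in the last Hes3 0.47, Hey1 0.33 and Lfng 0.44. Other sign changes were Notch3 in the second with median scaling (0.017) and close pairs averaged (0.028), Dll1 in the fourth with the authors' values (-0.10) and close pairs averaged (-0.19), Hes1 in the last with close pairs averaged (-0.022), and, without the arrays that stand apart, Dll1 in the second (-0.012) and Notch2 in the last (-0.011). With 1 array left out, values ran from -0.59 to 1.08 for Notch3 in the first, -0.54 to 0.25 for Notch3 and -0.033 to 0.90 for Dll1 in the second, -1.53 to 0.049 for Notch3 and -0.28 to 0.65 for Dll1 in the fourth, and -0.10 to 0.51 for Hes1 and -0.075 to 0.24 for Notch2 in the last. The cause was not tested. Signal near background limits Dll1, Hey1, Jag2, Heyl and Nrarp.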
